A study of Homo sapiens with 39 samples.

Results

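The genes described here were 6 genes grouped under the name p53 negative feedback regulators, namely MDM2, MDM4, PPM1D, CCNG1, PHLDA3 and ZMAT3. The name is that of the group, and whether each member acts back on p53 in these cells was not tested. They were chosen by name, as the rows of the deposited expression table whose gene symbol equals a member, and all 6 of the 6 were found among 20802 gene targets, each as 1 amplicon. All 6 passed the filter on low counts. The amplicons were AMPL7303511 (MDM2), AMPL10274727 (MDM4), AMPL8203365 (PPM1D), AMPL22019893 (CCNG1), AMPL12923467 (PHLDA3) and AMPL36838587 (ZMAT3).

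The tumour suppressor p53 is a transcription factor that is stabilised when DNA is damaged, and it then switches on genes of cell cycle arrest, repair and apoptosis. Among its targets are genes whose products act back on the pathway. MDM2 is an E3 ubiquitin ligase that marks p53 for degradation, and MDM4 is its relative, which binds p53 and holds down its activity. PPM1D encodes the phosphatase WIP1, which removes damage-induced phosphates from p53 and its kinases, cyclin G1 (CCNG1) recruits a protein phosphatase to MDM2, PHLDA3 restrains the survival kinase AKT, and ZMAT3 is a zinc finger protein that binds RNA. In the liver, chemicals that become reactive through metabolism are a common source of the DNA damage that the pathway reads.

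The cells were HepaRG™ cells, an established human hepatoma line that differentiates into a mixed culture of hepatocyte-like and cholangiocyte-like cells, and RNA was read by AmpliSeq, a sequencing method with targeted amplicons. Differentiated cells were treated 3 times, a day apart, and collected 7 h after the last treatment, at 55 h of total exposure. Each library held the pooled RNA of 3 cultures of 1 condition, so there were 39 libraries, 30 treated and 9 vehicle controls, and the spread between cultures was not measured. All libraries came from 1 line.

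The 5 DNA damage-inducing (DDI) chemicals were aflatoxin B1 (AFB1) at 0.25, 1 and 2.5 μM, 2-nitrofluorene (2NF) at 10, 50 and 250 μM, cisplatin (CISP) at 2, 5 and 10 μM and etoposide (ETP) at 0.5, 2.5 and 10 μM, all in DMSO, and methyl methanesulfonate (MMS) at 50, 100 and 200 μM in water. The 5 non-DDI chemicals were colchicine (COL) at 0.05, 0.1 and 0.3 μM in DMSO and, in media, 2-deoxy-D-glucose (2DG) at 1.25, 5 and 10 mM, sodium ascorbate (ASC) at 1, 2 and 10 mM, ampicillin trihydrate (AMP) at 1, 3 and 10 mM and sodium chloride (NaCl) at 1, 2.5 and 10 mM. COL is an aneugen, a chemical that disturbs chromosome segregation without damaging DNA directly. These concentrations are called low, mid and high below. The 9 controls were 4 in DMSO, 4 in media and 1 in water. Each treated library was set against the control of its own chemical, and AFB1 and COL share a control, as do the 3 concentrations of any chemical. Outside COL, vehicle and class cannot be told apart.

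The total count per library lay between 8504699 and 16425527 (median 11202013). The members were well counted at this depth. The smallest count of a member in any library was 152 (PHLDA3) and the largest was 11893 (MDM2). The counting error of a single log2 ratio was between 0.02 and 0.03 for MDM2 and between 0.11 and 0.16 for PHLDA3, and it covers counting only. The line was checked against markers of its labelled cell types. Of the hepatocyte markers, all 7 were counted in every library, with a summed level of 19989 to 43582 RPM (reads scaled to the library total) in the controls. Of 5 cholangiocyte-like markers, KRT7 and EPCAM were at 0 in some libraries of each group and had medians under 10 counts, while KRT19, SOX9 and SPP1 were tested.

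MDM2 is the textbook case of a p53 target with the binding site beside its own start, so the sequence is shown here. RefSeq promoter windows (GRCh38.p14, 250 bases before to 50 bases after a start site) were found for 5 of the 6 members, 10 windows in all. PHLDA3 had none by symbol. The windows were searched on both strands for the p53 consensus site, 20 letters without a spacer, which reads the same on either strand. In MDM2 the best match was found upstream of its second group of start sites, at chr12:68808923-68808942 on the plus strand, with 2 mismatches. In the GENCODE v29 basic annotation that position lies in an intron of 4 of the 4 MDM2 transcripts that span it, and in no exon. The stretch from 10 bases before the match up to the start site, chr12:68808913-68809016, is given first with the matched site in capitals. Only the best match is marked, and any weaker match in the stretch stays in lower case.

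MDM2 second promoter: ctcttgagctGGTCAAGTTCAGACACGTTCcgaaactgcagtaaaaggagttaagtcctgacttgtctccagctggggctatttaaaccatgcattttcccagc

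The best match of each member with a window is given next, to show how far each stands from the consensus. Capitals mark the letters that match it and lower case those that do not.

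MDM2: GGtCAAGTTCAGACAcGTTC

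PPM1D: AAGCAAaCTaGGAgATGCgC

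ZMAT3: GGGCcTGCTCcGcCAAGCaC

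MDM4: tcACAAGaCCctGCAAGTCC

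CCNG1: GGGgAAtTTgAGGCcAGaTa

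Of all 35114 windows in the table, 0.649% held a match with 2 or fewer mismatches, as MDM2 did. PPM1D (chr17:60599994-60600013, plus strand) and ZMAT3 (chr3:179071873-179071892, minus strand) reached 4 mismatches, which 26.0% of windows did. MDM4 (chr1:204516186-204516205, plus strand) had 5 and CCNG1 (chr5:163437409-163437428, plus strand) had 6, and the median window had 5. These matches describe letters in a short window and not binding, and sites farther away were not searched.

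MDM2, the ubiquitin ligase at the centre of the loop, lay above the matched control at the high concentration of all 5 DDI chemicals. Its level was 1112 RPM with AFB1 against 390.3 in the control, 955 with 2NF against 431, 601 with CISP against 397, 573 with ETP against 241 and 1222 with MMS against 777. The log2 ratios were 1.51, 1.15, 0.60, 1.25 and 0.65. For the non-DDI chemicals the level was 336 RPM with COL against 390.3 in the control, 506 with 2DG against 691 and 562 with ASC against 283. It was 494 with AMP against 301 and 493 with NaCl against 628. Against the matched controls the classes overlapped, because MDM2 was also higher with ASC (log2 ratio 0.99) and AMP (0.71). COL, 2DG and NaCl lay below their controls at -0.22, -0.45 and -0.35. The direction of 2DG and NaCl turned with the control used, since they gave 0.21 and 0.17 against the mean of the media controls and 0.25 and 0.21 against the mean of all 9. ASC and AMP fell to 0.36 and 0.17 against the media mean and to 0.40 and 0.21 against all 9. The overlap was absent there. Against the mean of the same vehicle the lowest DDI ratio was 0.65 (MMS, with 1 water control), above ASC. Against all 9 it was 0.43 (ETP), barely above ASC. RPM here is per amplicon and not per length, so levels are compared between libraries only and not between genes.

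**Figure D1:**
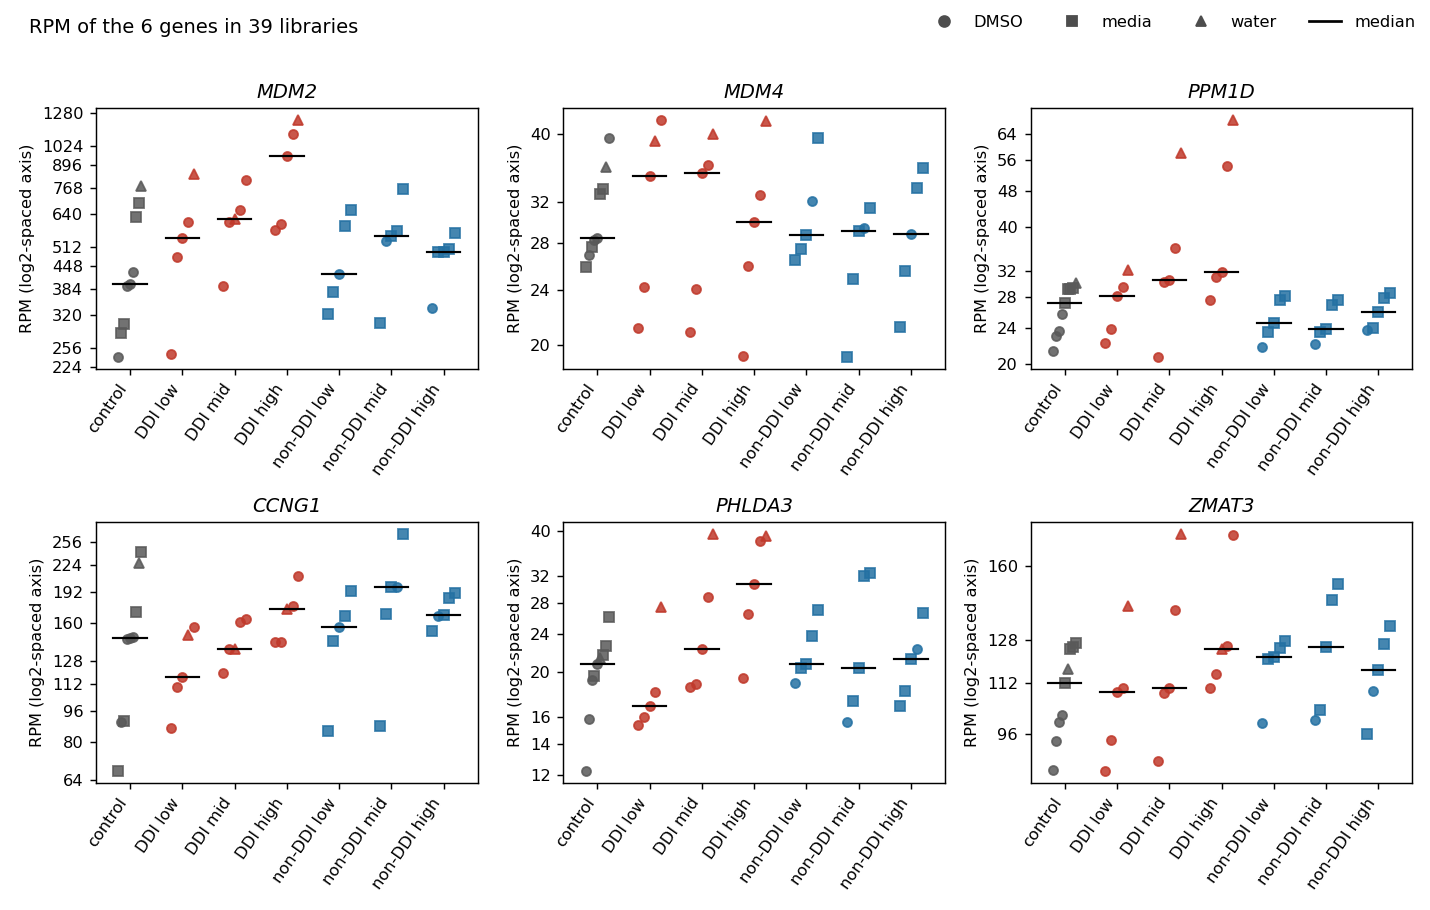
RPM of each member in all 39 libraries on a log2-spaced axis, with 1 panel per gene and the libraries grouped as controls and, for each class, by concentration. Symbols give the vehicle and the bar is the group median. The MDM2 controls reach from 241 to 777 RPM, while the PPM1D controls stay between 21.4 and 30.1 RPM.

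Below the high concentration MDM2 followed no common course. With ETP it was at 478 RPM at the low and 659.9 RPM at the mid concentration, against 573 at the high. MDM2 gave log2 ratios there of 0.99, 1.45 and 1.25 against the ETP control, the lowest of the 9 controls. It gave 0.42, 0.89 and 0.69 against the mean of the DMSO controls. With CISP it was 246 RPM at the low concentration, below its control (log2 ratio -0.69), and 391 at the mid (-0.02). MMS gave 845 and 621 RPM (0.12 and -0.32), AFB1 607 and 606 RPM (0.64 and 0.63), and 2NF 546 and 809.7 RPM (0.34 and 0.91). With 2NF and CISP alone was the level higher at each step, and for 4 of the 5 DDI chemicals the high concentration had the highest level. Among non-DDI conditions the lowest ratio was -1.10, with 2DG at the low concentration (323 RPM), and the highest ratio was 1.01, with ASC at the mid concentration (571 RPM).

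MDM4, the MDM2 relative, showed no such pattern. In the controls it lay between 25.9 RPM (AMP) and 39.6 RPM (2NF). At the high concentration the DDI libraries gave 19.3 RPM with AFB1, 30.003 with 2NF, 25.9 with CISP, 32.8 with ETP and 41.9 with MMS, for log2 ratios of -0.46, -0.39, -0.13, 0.21 and 0.21. The non-DDI libraries gave 28.8 with COL, 35.8 with 2DG, 21.2 with ASC, 25.5 with AMP and 33.5 with NaCl (0.10, 0.12, -0.36, -0.02 and 0.00). None of the 30 conditions moved MDM4 by more than 0.5 on the log2 scale, a size used here to count shifts in single libraries. The extremes were ASC at the mid concentration (19.2 RPM, -0.50) and ETP at the mid concentration (36.2 RPM, 0.35).

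PPM1D, which encodes the phosphatase WIP1, separated the classes at the high concentration against the matched controls. It was at 54.4 RPM with AFB1 against 23.6 in the control (log2 ratio 1.17) and at 68.6 with MMS against 30.1 (1.16). The other three DDI chemicals gave smaller ratios, with 31.1 RPM against 25.8 for 2NF (0.26), 31.9 against 21.4 for CISP (0.56) and 27.6 against 23.0 for ETP (0.26). The 5 non-DDI libraries ran from 23.8 RPM (COL) to 28.5 RPM (2DG), and their log2 ratios, 0.01 with COL, 0.07 with 2DG, -0.28 with ASC, -0.16 with AMP and -0.06 with NaCl, all lay below the lowest DDI value. At the mid concentration MMS gave 58.2 RPM (0.93) and AFB1 36.0 RPM (0.59). CISP gave 20.7 RPM there (-0.04), below its low concentration (29.6 RPM, 0.45). With AFB1, 2NF and MMS the level was higher at each step.

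CCNG1, cyclin G1, did not follow the class. The largest shifts of this gene were in non-DDI libraries, at 144, 197 and 185 RPM with ASC against 67.6 in its control (log2 ratios 1.08, 1.53 and 1.44) and at 193 and 191 RPM with AMP at the low and high concentration against 90.2 (1.09 and 1.07). With AMP at the mid concentration it was 87.7 RPM (-0.04). The ASC, ETP and AMP controls were the lowest of the 9 controls for this gene, as they were for MDM2. The DDI chemicals at the high concentration gave 209.9 RPM with AFB1, 143 with 2NF, 176 with CISP, 143 with ETP and 174 with MMS, for ratios of 0.53, -0.05, 0.27, 0.67 and -0.38. CCNG1 lay below its control at all 3 MMS concentrations, whose control was 227 RPM, and at 85.1 RPM with 2DG at the low concentration, against 242 (-1.50).

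PHLDA3, the AKT inhibitor, separated the classes at the high concentration against the matched controls, as PPM1D did. Its level was 38.0 RPM with AFB1 against 19.2 in the control, 30.8 with 2NF against 20.7, 26.5 with CISP against 15.8, 19.4 with ETP against 12.3, and 38.9 with MMS against 21.3. The log2 ratios lay between 0.55 (2NF) and 0.95 (AFB1), the narrowest spread of the 4 members with higher DDI means. The non-DDI libraries gave 22.3 RPM with COL, 16.9 with 2DG, 26.6 with ASC, 21.2 with AMP and 18.1 with NaCl, and their ratios lay between -0.60 (2DG) and 0.22 (ASC). In raw level the classes overlapped, since ETP at 19.4 RPM lay below COL, ASC and AMP. The ETP control was the lowest of the 9 for PHLDA3. Against the mean of the controls of the same vehicle the PHLDA3 classes overlapped, with ETP at 0.21 below COL (0.40) and ASC (0.24). PPM1D stayed apart against that mean, with its lowest DDI ratio at 0.23 (ETP) and its highest non-DDI ratio at 0.02 (COL). Against all 9 controls PPM1D overlapped too, with ETP at 0.07 below 2DG at 0.11. At the mid concentration CISP (28.8 RPM, 0.82) and MMS (39.3 RPM, 0.85) were as high as at the high one, while AMP reached 32.4 RPM (0.56) and 2DG 32.0 RPM (0.28).

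ZMAT3, the RNA-binding zinc finger protein, moved least among the members with higher DDI means. At the high concentration it was 176 RPM with AFB1 against 99.7 in the control, 126 with 2NF against 102, 115 with CISP against 94.1, 110.3 with ETP against 86.1 and 125 with MMS against 117. The ratios were 0.82, 0.30, 0.29, 0.35 and 0.09. Non-DDI libraries gave 109 RPM with COL, 126 with 2DG, 117 with ASC, 133 with AMP and 96.0 with NaCl, with ratios from -0.22 (NaCl) to 0.13 (COL). MMS overlapped with that range at the high concentration but had reached 176 RPM at the mid one (0.59).

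**Figure D2:**
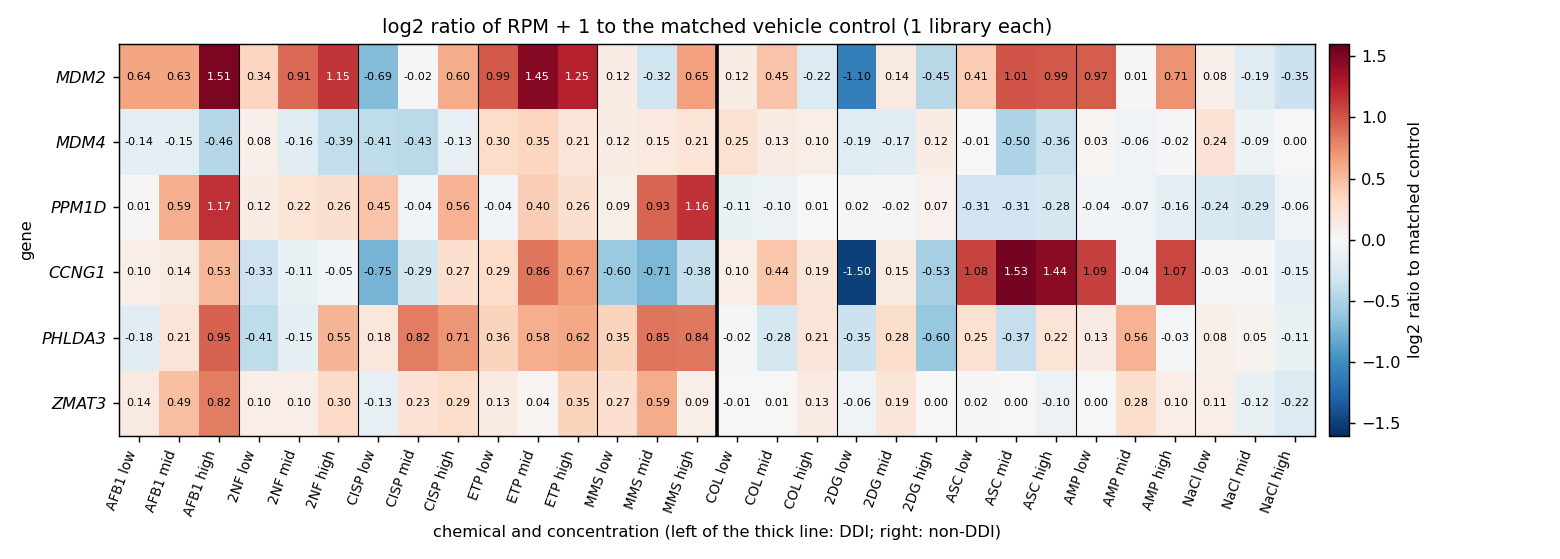
Log2 ratio of RPM + 1 to the matched control for the 6 members (rows) in 30 conditions (columns), with DDI chemicals to the left of the thick line and non-DDI to the right. Red is higher and blue lower than the control. PPM1D and PHLDA3 are red in all 5 DDI chemicals at the high concentration, and the strongest colours of CCNG1 are in ASC, AMP and 2DG.

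Counted per chemical at the high concentration, AFB1 moved the most members above a log2 ratio of 0.5, at 5 of 6 (background 13.6% of 13246 genes). CISP, ETP and MMS had 3 of 6 each, against 5.77%, 7.86% and 19.6% of all genes, and 2NF had 2 of 6 against 13.6%. MDM2 and PHLDA3 were among them for all 5 DDI chemicals, and PPM1D for AFB1, CISP and MMS. In the non-DDI chemicals ASC and AMP had 2 of 6 each, MDM2 and CCNG1 both times, against 14.1% and 10.5% of all genes. COL, 2DG and NaCl had 0 of 6, against 15.6%, 2.95% and 4.00%. MMS, COL and ASC moved more genes past that value than AFB1 did, and 2NF about as many, each with fewer members. These counts rest on 1 library a condition, have no replicate check and carry no p-value.

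To ask whether DDI and non-DDI chemicals differed, the 5 log2 ratios of each class were compared at each concentration by an exact permutation test over chemicals (two-sided, smallest p 0.00794). At the high concentration PPM1D differed by 0.77 (DDI mean 0.68 ± 0.46, non-DDI -0.09 ± 0.14, SD, n = 5 each; exact p = 0.00794) and PHLDA3 by 0.79 (0.73 ± 0.16 against -0.06 ± 0.34; exact p = 0.00794, n = 5 each). For these 2 genes the lowest DDI ratio exceeded the highest non-DDI ratio, as it did for 0.913% of all genes. MDM2 differed by 0.89 (1.03 ± 0.39 against 0.14 ± 0.66, n = 5 each; exact p = 0.0476) and ZMAT3 by 0.39 (0.37 ± 0.27 against -0.02 ± 0.15, n = 5 each; exact p = 0.0238). CCNG1 (-0.20, exact p = 0.659) and MDM4 (-0.08, exact p = 0.619) did not differ beyond the spread between chemicals. Adjusted over all 13246 genes, no member reached 0.05, and the lowest adjusted value was 0.665, which this design could not improve on for these genes since their p was already the smallest it allows.

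**Figure D3:**
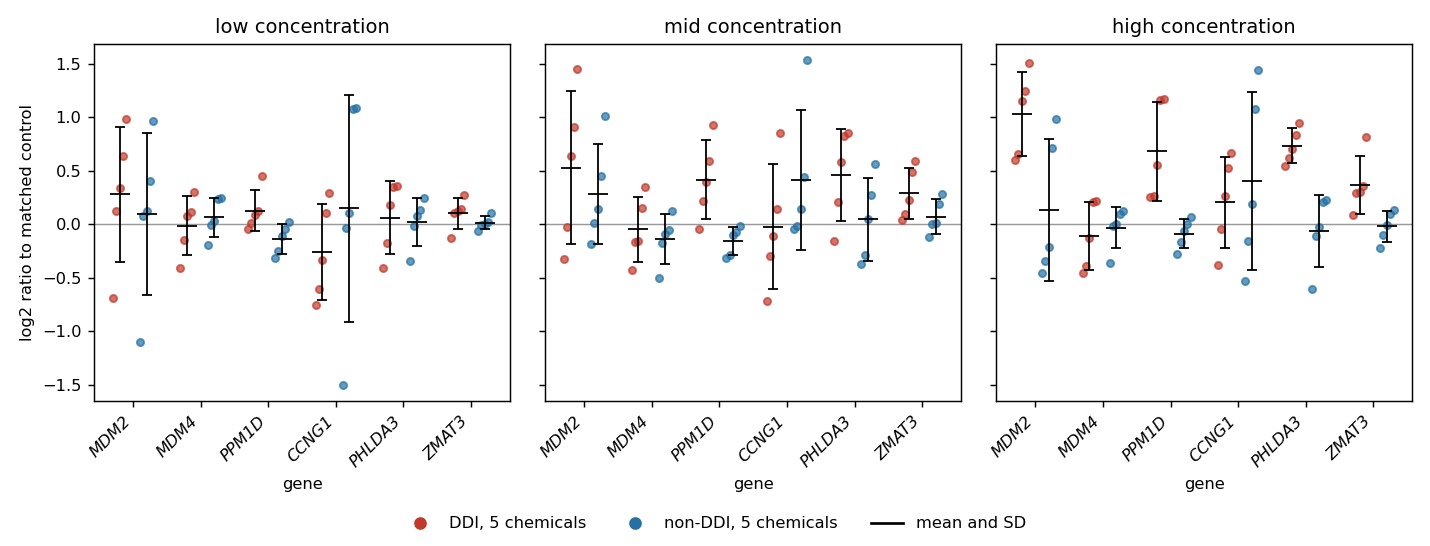
Log2 ratios of the 6 members to the matched control by class at the low, mid and high concentration. Each point is 1 chemical and the bar and whiskers are the mean and SD over 5 chemicals. At the high concentration the DDI points of PPM1D and PHLDA3 lie above all non-DDI points, and CCNG1 and MDM4 overlap.

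At the mid concentration PPM1D differed between the classes by 0.57 (exact p = 0.0159) and at the low concentration by 0.26 (exact p = 0.0397, n = 5 chemicals per class). It was the one member with an unadjusted exact p under 0.05 at all 3 concentrations, and the share of all genes that meet this was not counted. Adjusted over all genes, it did not pass at the mid (0.783) or the low concentration. In edgeR the PPM1D class difference at the low concentration had an unadjusted p of 0.0582. At neither the mid nor the low concentration did the PPM1D classes separate fully, and no member separated them there, against 0.776% of genes at mid and 0.211% at low concentration. The other 5 members had exact p between 0.143 and 0.611 at the mid and between 0.254 and 0.825 at the low concentration. The MDM2 call at the high concentration depended on single chemicals. Its exact p rose above 0.05 without AFB1 (difference 0.77, p = 0.0873), 2NF (0.86, p = 0.0794), ETP (0.84, p = 0.0873), COL (0.81, p = 0.0794), 2DG (0.75, p = 0.0794) or NaCl (0.77, p = 0.0794). The exact p of PHLDA3 was 0.00794 under each of these omissions, the smallest possible with 5 against 4 chemicals. Its classes were fully separated with all chemicals, so leaving 1 out could not make them overlap. The exact p of PPM1D and ZMAT3 reached at most 0.0238 and 0.0397.

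Class and vehicle go together in this design, so the DMSO chemicals were read on their own. Among them, all 4 DDI chemicals at the high concentration lay above COL for MDM2 (mean 1.13 ± 0.38 against -0.22), PPM1D (0.56 ± 0.43 against 0.01), PHLDA3 (0.71 ± 0.17 against 0.21) and ZMAT3 (0.44 ± 0.25 against 0.13; SD, n = 4 DDI chemicals). These ratios are to the matched controls. Against the mean of the DMSO controls PHLDA3 with ETP (0.21) lay below COL (0.40), and ZMAT3 with ETP (0.21) lay barely above COL (0.20). MDM2 and PPM1D with ETP (0.69 and 0.23) stayed above COL (-0.08 and 0.02). With 1 chemical on the other side no test was made. AFB1 and COL, which share a control, gave 54.4 and 23.8 RPM for PPM1D and 1112 and 336 RPM for MDM2 at the high concentration.

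On the deposited counts, edgeR's quasi-likelihood test compared DDI libraries with their matched controls and with the non-DDI chemicals, with adjustment over all genes tested. At the high concentration 3 of the 6 members were called higher in DDI libraries than in controls, against 1.43% of all genes. MDM2 rose by 1.05 ± 0.21 on the log2 scale (SE; edgeR adjusted p = 0.0255), PHLDA3 by 0.69 ± 0.12 (adjusted p = 0.016) and PPM1D by 0.67 ± 0.14 (adjusted p = 0.0279), each in 5 of 5 chemicals. ZMAT3 had 0.33 ± 0.10 (edgeR adjusted p = 0.105), CCNG1 0.20 ± 0.24 (0.715) and MDM4 -0.19 ± 0.13 (0.49). The median log2 change of the 6 members was 0.50, beside -0.0018 for all genes.

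These 3 calls depended on single chemicals. Without AFB1 edgeR called 0 of 6 members, with adjusted p of 0.174 for MDM2, 0.184 for PPM1D and 0.119 for PHLDA3, and in that fit 0 genes of all those tested were called higher. MDM2 was also lost without 2NF (edgeR adjusted p = 0.0851) or ETP (0.0544), and PPM1D without CISP (0.0554) or MMS (0.0946). The estimates moved less than the p-values did, to 0.87 for MDM2, 0.53 for PPM1D and 0.66 for PHLDA3 without AFB1. At the mid concentration 0 of 6 members were called by edgeR (0.121% of genes were), with 4 of 6 at an unadjusted p under 0.05 (4.72% of genes, higher in DDI), and at the low concentration 0 of 6 (0% of genes), with 0 of 6 unadjusted (1.57%). DESeq2 called 3 of 6 at the high, 0 of 6 at the mid and 0 of 6 at the low concentration, where it called 3.10%, 1.19% and 0% of all genes higher.

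**Figure D4:**
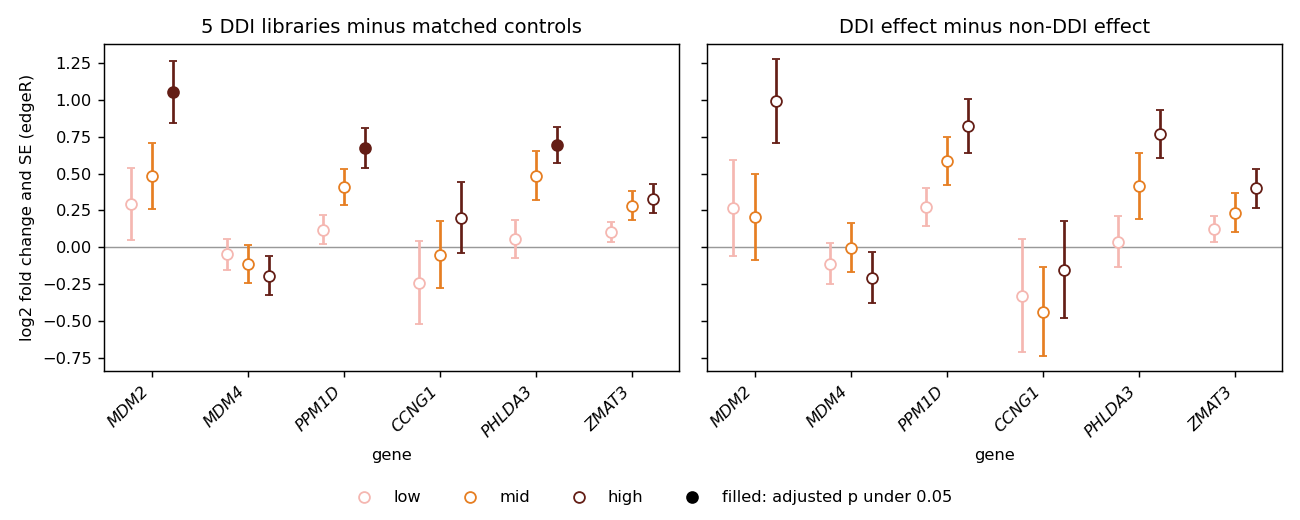
edgeR log2 fold changes with their standard errors for the 6 members at the low, mid and high concentration, for DDI libraries against their controls (left) and for the DDI effect minus the non-DDI effect (right). Filled points have an adjusted p under 0.05. MDM2, PPM1D and PHLDA3 are filled at the high concentration on the left, and no member is filled on the right.

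The difference between the classes did not pass in the same fit. edgeR called 0 of 6 members higher in DDI than non-DDI chemicals at the high concentration, where 0.0453% of all genes were called. PHLDA3 came nearest (0.77 ± 0.16, SE; edgeR adjusted p = 0.112), then PPM1D (0.82 ± 0.18, 0.134), MDM2 (0.99 ± 0.29, 0.307) and ZMAT3 (0.40 ± 0.13, 0.416). At an unadjusted p under 0.05 there were 4 of 6 members, against 4.31% of genes, and at the mid concentration 1 of 6 (PPM1D), against 2.52%. DESeq2 called 2 of 6 at the high concentration, PHLDA3 (adjusted p = 0.0142) and PPM1D (0.0169), against 0.596% of all genes.

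Among the controls, MDM2 and CCNG1 varied more than most genes. MDM2 ran from 241 RPM (ETP) to 777 RPM (MMS), a log2 range of 1.69 that was wider than that of 95.6% of 13246 genes, whose median range was 0.72. CCNG1 ran from 67.6 RPM (ASC) to 242 RPM (2DG), a log2 range of 1.83, wider than 96.9% of genes. The ranges of PPM1D (0.48), ZMAT3 (0.55) and MDM4 (0.60) were below the median, and PHLDA3 (1.04) was above it. In steps along the order of MDM2 controls, ETP, ASC and AMP (241, 283 and 301 RPM) came first, then AFB1 with COL, CISP and 2NF (390.3, 397 and 431), then NaCl, 2DG and MMS (628, 691 and 777). With 1 library each, neighbours in that order cannot be told apart.

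The control range sets the scale for single ratios. Taking the largest difference between any 2 controls of the same vehicle as a limit, which exists for DMSO and media, 6 of 12 DDI conditions of MDM2 and 6 of 12 of PPM1D lay above it, 5 of 12 of ZMAT3, 2 of 12 of PHLDA3, 1 of 12 of CCNG1 and 0 of 12 of MDM4. Over all 13246 genes taken with the same 12 conditions, 11.7% of ratios lay above their limit. CCNG1 also lay below its limit in 1 of the 12, which 10.8% of all ratios did. Of the 15 non-DDI conditions, 2 of ZMAT3, 1 of PHLDA3 and 0 of the other 4 members lay above the limit, beside 8.35% of ratios over all genes. For MDM2 that limit was 0.84 in DMSO and 1.29 in media, so the ratios seen with ASC and AMP lay within it. The low ETP control set the DMSO limit, and the MDM2 conditions above it included ETP at each concentration. Against the mean of the DMSO controls, ETP at the low and high concentration lay within the limit (0.42 and 0.69). For PPM1D the limit was 0.26 in DMSO and 0.10 in media, and 6 of the 15 non-DDI conditions lay below their controls by more than that. So did 2 of MDM4, 1 of PHLDA3 and 1 of ZMAT3 by their own limits, beside 9.25% of ratios over all genes. The counting error of a single PPM1D ratio was 0.09 to 0.13, about the size of its media limit. Passing that limit alone therefore does not set a ratio apart from counting error. PPM1D with 2NF at the high concentration barely passed the DMSO limit (0.260 against 0.259).

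**Figure D5:**
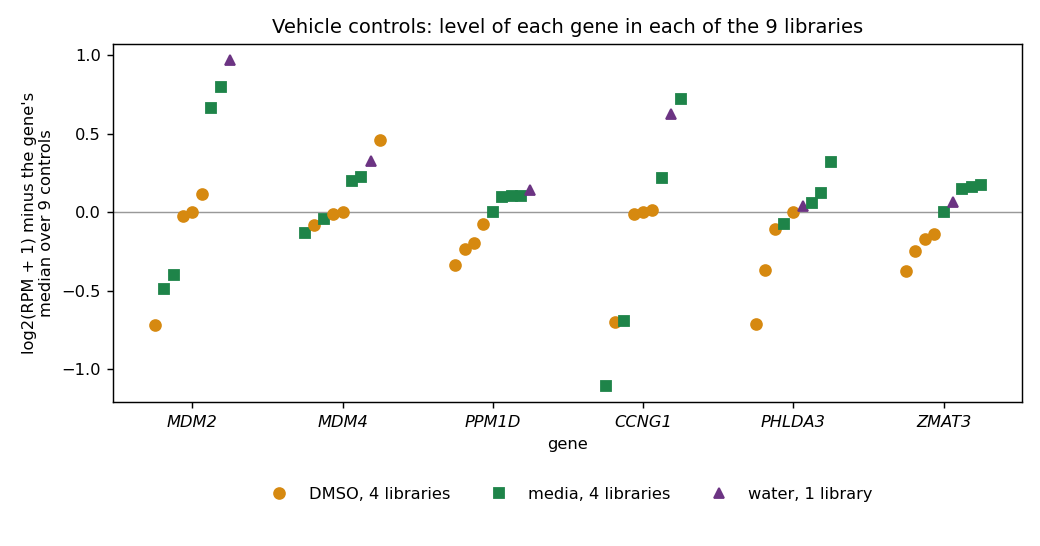
Level of each member in the 9 vehicle controls as log2(RPM + 1) minus the gene's median over them, with symbols for the vehicle. MDM2 and CCNG1 spread over 1.69 and 1.83, and for PPM1D and ZMAT3 the 4 DMSO controls lie below the 4 media controls.

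For PPM1D and ZMAT3 every DMSO control lay below every media control, as for 8.88% of all genes. PPM1D averaged 23.4 ± 1.82 RPM in DMSO and 28.7 ± 1.02 in media (SD, n = 4 each; exact permutation p = 0.0286, the smallest this design allows). ZMAT3 averaged 95.4 ± 6.94 and 122 ± 6.74 RPM (n = 4 each; exact permutation p = 0.0286). PHLDA3 was also lower in DMSO on average, with overlapping controls (n = 4 each; exact permutation p = 0.0571). Its DMSO minus media difference on the log2 scale was -0.404, beside -0.285 for PPM1D and -0.354 for ZMAT3. MDM2, MDM4 and CCNG1 did not differ between vehicles beyond the spread of the controls, with exact permutation p of 0.429 or more (n = 4 each). When the mean of all 9 controls took the place of the matched control, the ZMAT3 class difference at the high concentration fell from 0.39 to 0.15 (exact p = 0.405) and that of PHLDA3 from 0.79 to 0.50 (exact p = 0.0556).

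The members did not vary as 1 group across the 39 libraries. PHLDA3 and ZMAT3 had the highest Pearson correlation of log2(RPM + 1) among the 15 pairs (r = 0.76), followed by MDM2 and CCNG1 (0.70), PPM1D and PHLDA3 (0.64), PPM1D and ZMAT3 (0.57) and MDM2 and PPM1D (0.54). MDM4 had r between -0.11 and 0.30 with the others. Within the 16 media libraries MDM2 and CCNG1 had r = 0.94, while MDM2 and PPM1D had r = -0.30 there and 0.65 in the 19 DMSO libraries. Libraries share controls, vehicle and chemical, so these values are a description.

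The genes most like each member across the 39 libraries were sought among the 11562 genes whose count reached 10 in each library. For PPM1D they were XPC, which recognises damaged bases in nucleotide excision repair (r = 0.89), C16orf5 (0.88) and POLH, a DNA polymerase that copies past lesions (0.87). For MDM2 they were the chaperone gene HSPA4L, the recombination repair gene RAD54B and CCP110 (0.88, 0.87 and 0.87), and for CCNG1 CCDC132, FAM49B and the translation initiation factor subunit EIF2S3 (0.90, 0.88 and 0.88). The 9 controls alone gave r of 0.93 and 0.97 for the first of each of these, HSPA4L and CCDC132, and for PPM1D -0.08 with XPC, 0.87 with C16orf5 and 0.77 with POLH. PHLDA3 was closest to SLC12A4, PHF13 and SNRPB (0.82, 0.82 and 0.80), ZMAT3 to the ribonuclease H2 subunit RNASEH2A, the KIT ligand KITLG and FBXO2 (0.83, 0.82 and 0.81), and MDM4 to MIR548I1, LOC100271836 and LINC00641 (0.86, 0.85 and 0.84).

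The other genes of the pathway were read in the same edgeR fit at the high concentration. Of 24 p53 effector targets, 12 were called higher in DDI libraries than in controls and 0 lower, with a median log2 change of 0.61. FDXR, a mitochondrial ferredoxin reductase, rose by 1.18 ± 0.16 (SE; edgeR adjusted p = 0.00495), SPATA18 by 1.18 ± 0.14 (0.00315), TP53I3 by 1.00 ± 0.18 (0.0151) and the cell cycle inhibitor CDKN1A by 0.49 ± 0.11 (0.0333), while EDA2R, a death-domain receptor, had 0.88 ± 0.29 (0.128). Against the non-DDI chemicals 1 of 24 was called, FDXR (1.42 ± 0.21, edgeR adjusted p = 0.0398), and 17 of 24 had an unadjusted p under 0.05. DESeq2 called 16 of 24 against controls and 8 of 24 against the non-DDI chemicals. The 3 members called thus had changes within the range of these targets, which was 0.25 to 1.18.

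The enzymes that act on p53 turnover outside the members showed no called change. Of 7 such genes 6 were tested and 0 were called by edgeR or had an unadjusted p under 0.05, with -0.03 ± 0.10 for the ligase RFWD2 (COP1), -0.08 ± 0.08 for the deubiquitinase USP7, 0.06 ± 0.14 for TRIM24 and -0.12 ± 0.16 for HUWE1 (log2 change, SE). DESeq2 called 0 of these 6 and 0 of the 8 partners of the members. Among the kinases that act on p53, log2 changes were 0.26 ± 0.33 for ATM (SE; edgeR adjusted p = 0.727), 0.06 ± 0.09 for PRKDC (0.757) and 0.12 ± 0.35 for CHEK2 (0.898), and CHEK1 had 0.37 ± 0.13 (0.163). In the list of p53 and its kinases edgeR called 0 of 7 genes. Of these, 2 had an unadjusted p under 0.05, higher in DDI libraries, CHEK1 among them, and DESeq2 called 1 of 7 higher. Of the partners through which cyclin G1 and PHLDA3 act, the PP2A B56 subunits and the AKT kinases, 0 of 8 were called and 0 had an unadjusted p under 0.05, with PPP2R5B at 0.13 ± 0.18, PPP2R5A at 0.01 ± 0.19 and PPP2R5C at -0.21 ± 0.12.

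Markers of cell type and proliferation moved in the same libraries. Of 6 proliferation markers 2 were called higher in DDI libraries than in controls at the high concentration, TOP2A (1.60 ± 0.29, SE; edgeR adjusted p = 0.017) and CDK1 (1.56 ± 0.29, 0.0188), with MKI67 at 1.35 ± 0.38 (0.082) and AURKB at 1.42 ± 0.47 (0.138), and DESeq2 called 5 of 6. Their summed level was 65 to 231 RPM in the 9 controls, 147 to 588 in the 5 DDI and 115 to 287 in the 5 non-DDI libraries. Of 7 hepatocyte markers edgeR called 0 and DESeq2 called 4 lower, and 5 had an unadjusted p under 0.05 downwards in edgeR, among them CYP3A4 (-2.05 ± 0.61, edgeR adjusted p = 0.102), TTR (-1.39 ± 0.34, 0.0577), TF (-1.24 ± 0.32, 0.07) and APOA1 (-1.16 ± 0.33, 0.087). Their summed level was 5888 to 34827 RPM in DDI and 17800 to 36778 RPM in non-DDI libraries. Of all 13246 genes edgeR called 65 lower and DESeq2 367, and 1236 had an unadjusted edgeR p under 0.05 downwards. Called higher were 1.43% of genes by edgeR and 3.10% by DESeq2. Of the cholangiocyte-like markers SOX9 had -0.74 ± 0.22 (0.0991), SPP1 -0.02 ± 0.36 and KRT19 -0.16 ± 0.28, and the summed level was 465 to 1454 RPM in controls and 317 to 1366 in DDI libraries. The part of these markers in the members' values was not tested, and in pooled RNA a change in the mix of cells and a change in RNA per cell cannot be told apart.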

How the data were processed

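The members and the gene lists were chosen with earlier results of these data known. Reads were aligned by the authors with the Torrent Mapping Alignment Program (Torrent Suite 5.04) to hg19, and the authors deposited counts of reads per amplicon and RPM, each count scaled to its library total. RPM recomputed from the counts differed by at most 0.000538. The 10 spike-in targets among 20812, which no read reached, were not used.

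Log2 ratios are log2(RPM + 1) minus the matched control. Exact permutation tests were two-sided. edgeR 4.0.16 (TMM, filterByExpr, quasi-likelihood) was fitted per concentration on 19 libraries with the control set as a block (9 sets, 8 residual degrees of freedom) and 1 term per class, over 13246, 13273 and 13274 genes at the high, mid and low concentration. Chemicals serve as replicates of a class. P-values were adjusted by the method of Benjamini and Hochberg. Both tests were tested on simulated data. DESeq2 1.42.0 was an alternative, with a pseudocount of 0.1, other scalings, filters and controls, 1 fit of all 39 libraries and each chemical left out. Named genes were the members, CDKN1A, up to 4 of each other list with the largest class difference in edgeR, and for each member the 3 genes with the highest correlation. Some genes that this rule picks are not reported here. Other genes were named after their values were seen. RefSeq windows were on GRCh38.p14. R 4.3.3 and Python 3.11.15 were used.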

Additional observations from a re-analysis of the deposited data

Results flagged for a closer look

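Of 48 groups of 4 or 5 libraries or ratios of a member, 6 had a highest or lowest value far from the others, and chance alone gives about 1 in 20 such groups. In the DMSO controls the ETP library was low for MDM2 (7.92 as log2(RPM + 1), others 8.61 to 8.75) and for CCNG1 (6.51, others 7.20 to 7.22). Both genes therefore have a low starting point in the ETP ratios. The ETP control was also the lowest of the 9 for PHLDA3 (12.3 RPM) and ZMAT3 (86.1 RPM), though not flagged, so their ETP ratios start low too. In the same controls the 2NF library was high for MDM4 (5.34, others 4.80 to 4.88). In the media controls the 2DG library was low for PPM1D (4.82, others 4.91 to 4.92) and the NaCl library low for ZMAT3 (6.82, others 6.97 to 7.00). Among the non-DDI ratios at the high concentration, ASC was low for MDM4 (-0.36, others -0.02 to 0.12).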

How the results depend on the processing

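The class difference of MDM2 at the high concentration was 0.86 with TMM-scaled RPM and 0.83 with DESeq2 size factors (exact p = 0.0635 for both), and 0.75 to 1.11 with 1 chemical left out. With the mean of all 9 controls PHLDA3 gave 0.50 (exact p = 0.0556) and ZMAT3 0.15 (exact p = 0.405), and among DMSO chemicals alone PHLDA3 gave 0.50. For the class difference in counts, DESeq2 called 2 members and 1 fit of all 39 libraries called 1 (PPM1D), against 0. Over all genes edgeR called 6 higher in DDI, against 79 with DESeq2, 30 with no filter, 0 with at least 10 counts in every library, 12 without the block and 125 with 1 fit of all 39 libraries. For DDI against controls it called 190, against 410 with DESeq2, 525 with 1 fit and 52 without the block, and 0 to 474 with 1 chemical left out. Members called in that comparison ranged from 0 to 3 with 1 chemical left out, and were 0 without the block, an alternative chosen after seeing the data (MDM2 0.90, edgeR adjusted p = 0.0713). With 1 fit of all 39 libraries 4 members were called, ZMAT3 among them (0.365, edgeR adjusted p = 0.0124). At the mid concentration the count of all genes was 16, and 158 with DESeq2. Of the 180 ratios of members in single conditions, 31 turned sign against the mean of the controls of the same vehicle and 40 against all 9 controls. Among ratios past 0.5 in size this held for CCNG1 with MMS at the low (0.13) and mid (0.015) concentration and with 2DG at the high (0.29) against all 9 controls, for 2DG at the high also against the media controls (0.41), and for PHLDA3 with ETP at the mid (-0.053) and high (-0.011) concentration against all 9 controls. Smaller ratios that turned included MDM2 with MMS at the mid concentration (-0.32 to 0.54 against all 9), with NaCl at the mid (-0.19 to 0.37) and with ASC at the low (0.41 to -0.18). The cause of these changes was not tested. The smallest member count was 152, and the counting error of a ratio reached 0.16 (PHLDA3). With 1 library per condition the spread between cultures is unmeasured.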
